A study of Mus musculus with 3 samples.

Results

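The cells described here are the Gr-1+ CD11b+ myeloid cells of the mouse colon, compared with 2 other myeloid populations of the same tissue. A gene counted as a member when its log2(FPKM + 1) in the Gr-1+ CD11b+ library differed by 2 or more, in the same direction, from both other libraries. It also had to reach 10 FPKM in the higher library or libraries. FPKM counts sequenced fragments per kilobase of transcript and relative to all mapped fragments. Of 24346 gene symbols, 17329 reached 1 FPKM in any library and were compared. The rule found 194 genes higher in Gr-1+ CD11b+ cells than in both others (1.12% of the genes compared) and 238 lower (1.37%), 432 in all.

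The 3 populations came from the colon of healthy, untreated BALB/c mice. Besides Gr-1+ CD11b+ cells, whose cell type the labels give as neutrophil and monocyte together, they were CD64- dendritic cells (DC) and CD64+ macrophages. The labels give no age, no sex and no genetic change, and do not say how many mice were pooled. Each population had 1 library, so differences between populations cannot be set against a spread and were not tested. The values describe these libraries, and in bulk RNA fewer cells of a type and less RNA per cell cannot be told apart.

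Gr-1 is an epitope of Ly6 surface proteins, carried most strongly by neutrophils and more weakly by some monocytes, and CD11b is the integrin alpha chain encoded by Itgam. Neutrophils are short-lived phagocytes that leave the blood toward chemokines, bacterial peptides and complement fragments. They make their granule proteins in waves in the bone marrow, azurophil granules first, then specific and gelatinase granules. Presentation of antigen on MHC class II, by contrast, is the work of dendritic cells, macrophages and B cells.

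The Gr-1+ CD11b+ library was the shallowest and had the highest background. FPKM steps of single-transcript genes put the DC library at 3.58 and the macrophage library at 2.70 times its depth, and 10 FPKM on a transcript of 1 kb rested on about 25.4 fragments in it. The 95th percentile of 1452 olfactory and vomeronasal receptor genes, which myeloid cells are not known to use, was 9.69 FPKM for Gr-1+ CD11b+ cells, 0.611 for DC and 3.24 for macrophages. That percentile is called the silent level below. Markers of other cells also differed between the libraries. The 28 genes of the colon epithelium list summed to 4671 FPKM for Gr-1+ CD11b+ cells, 1994 for DC and 1328 for macrophages, the 20 B and plasma cell genes to 722, 25095 and 1528, and the 33 macrophage genes to 4356, 5624 and 38356. The part of these in any difference was not tested.

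All 4 marker genes given for the population were higher than in both others. S100a8, which encodes a calcium-binding alarmin stored in neutrophil cytosol, was at 98579.9 FPKM in the Gr-1+ CD11b+ library, 828 in DC and 2154 in macrophages. Lcn2, the iron-siderophore binding protein lipocalin 2, was at 3579 FPKM in the Gr-1+ CD11b+ library, 43.1 in DC and 91 in macrophages. Csf3r, the receptor of the growth factor G-CSF, was at 838 FPKM in the Gr-1+ CD11b+ library, 9.85 in DC and 63.6 in macrophages. Retnlg, a resistin-like protein of mouse granulocytes, was at 9198 FPKM in the Gr-1+ CD11b+ library, 255 in DC and 649.8 in macrophages. The log2 difference of these genes from the nearer library lay between 3.70 for Csf3r and 5.52 for S100a8, against a median of 0.01 from DC and 0.10 from macrophages over all genes compared. The transcript of CD11b itself did not meet the rule: Itgam was at 172 FPKM in the Gr-1+ CD11b+ library, 18.7 in DC and 114 in macrophages. Ly6g was not analysed here. Ly6c2, a Ly6 gene of monocytes, was lower in Gr-1+ CD11b+ cells at 319.8 FPKM than in DC at 878 and in macrophages at 782, by less than the rule asks. Ly6c1, close to it on chromosome 15, was at 79.9, 68.8 and 44 FPKM in Gr-1+ CD11b+, DC and macrophage libraries, highest in the first and also short of the rule. Fcgr1, which encodes CD64, stood at 12.3, 9.23 and 113 FPKM in that order, highest in the CD64+ library.

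The label names monocytes as well as neutrophils, and their genes were not raised together. None of 24 monocyte genes was higher than in both others, and none was lower. The median difference of that list was 0.20 from DC and -1.76 from macrophages, and 10 of the 24 were lower than in macrophages by the rule applied to that comparison alone (591 genes, 3.41%). Ccr2, the receptor that brings monocytes out of the marrow, was at 25.8, 27.6 and 247 FPKM in Gr-1+ CD11b+, DC and macrophage libraries. Csf1r, the receptor of the macrophage growth factor, was at 153, 76.5 and 714 FPKM in that order. Cd14, the lipopolysaccharide co-receptor, was at 10998 FPKM in the Gr-1+ CD11b+ library, 462 in DC and 5981 in macrophages, a log2 difference of 0.88 from macrophages. Of 30 genes of neutrophil surface and identity, 22 were higher than in both others and none lower, with median differences of 4.84 from DC and 3.10 from macrophages; 23 exceeded macrophages by the rule for that comparison alone (244 genes, 1.41%). That list was drawn up with the earlier results of these data known.

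**Figure D1:**
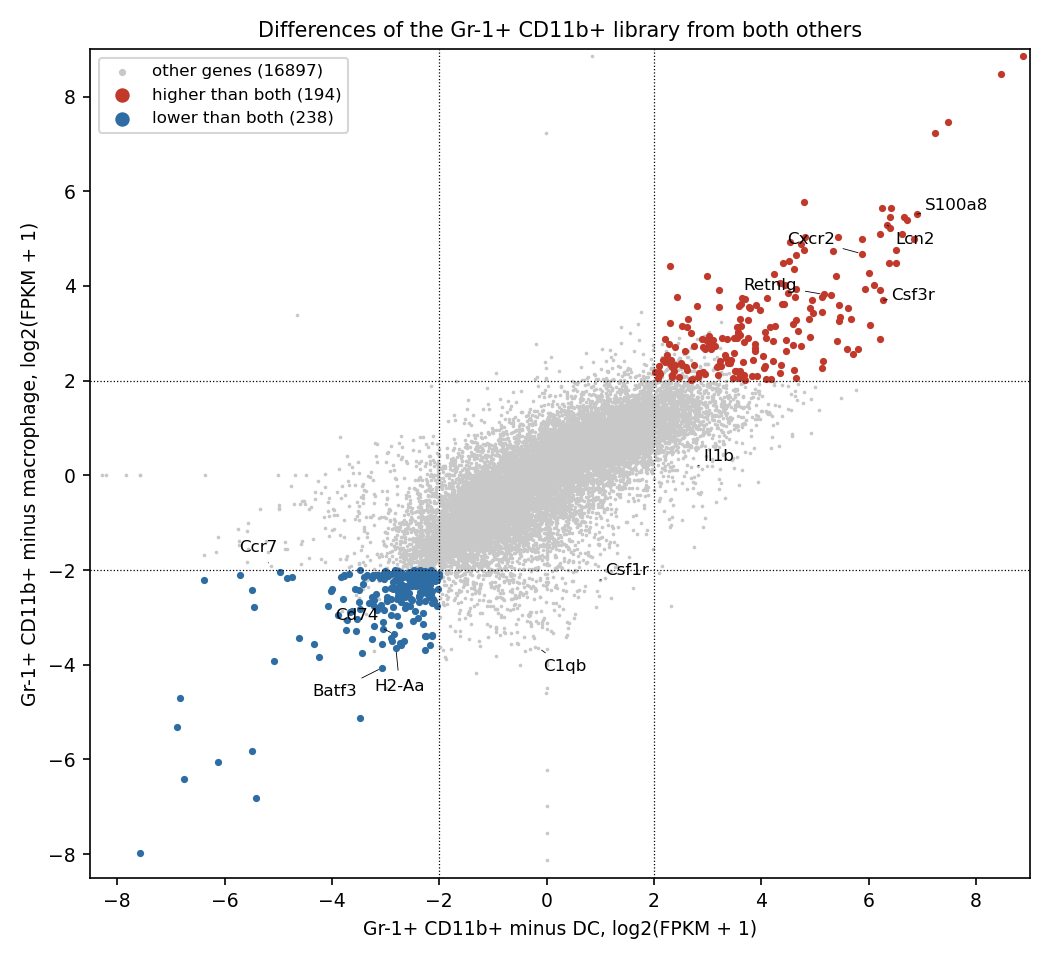
Difference of the Gr-1+ CD11b+ library from the DC library (x axis) and from the macrophage library (y axis), in log2(FPKM + 1), for genes at 1 FPKM or more in any library, with 1 point per gene and 21 genes beyond the axes. Dotted lines mark differences of 2 and -2; the 194 higher genes (red) lie at the upper right with S100a8 at 6.89 and 5.52, and the 238 lower genes (blue) lie mostly close to the dotted lines.

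In the values as deposited, the members in the higher direction reached further than those in the lower direction. The smaller of a gene's differences had a median of 2.87 among the 194 higher genes, and 40 of them reached 4 or more. Among the 238 lower genes that median was -2.27, and 12 reached -4. Those 12 were the 9 small RNAs of the lower direction together with Rps27, Hbb-bs and H2-Q8. The higher genes held 8 small RNAs, and transcripts that short are poorly measured by FPKM. The higher genes held 36.5% of the FPKM sum of the Gr-1+ CD11b+ library, against 1.15% in DC and 1.87% in macrophages, and 9 of its 20 most abundant genes were among them. The lower genes held 1.29% of that library's sum, against 13.004% in DC and 14.7% in macrophages. Without small RNAs the shares of the higher genes were 33.5%, 1.16% and 1.94% in Gr-1+ CD11b+, DC and macrophage libraries. Those of the lower genes were 1.37%, 12.1% and 12.9% in that order. The rule chose these genes by the same values, so the direction of these contrasts in share was fixed in advance. In Gr-1+ CD11b+ cells 145 of the 238 lower genes were at or below the silent level of 9.69 FPKM, where a level cannot be told from background.

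The balance of the directions depended on how the libraries were scaled. With median-ratio scaling the rule found 498 genes higher and 60 lower, and with equal 75th percentiles 508 and 59. With equal FPKM sums it found 176 and 275, and with the silent level subtracted 152 and 1695. Median-ratio scaling moved the median of all genes to 0.63 from DC and 0.53 from macrophages, and subtraction of the silent level moved it to -1.07 from DC. All 194 higher genes were still called under both of the first scalings, whereas 60 and 59 of the lower genes were. Those scalings moved the differences upward, which favours higher calls and removes lower ones. This outcome therefore does not show that the higher calls are the steadier. With the silent level subtracted, 146 of the 194 higher genes and 225 of the 238 lower genes were still called. Under all 4 settings 140 of the higher and 57 of the lower genes were. No lower gene turned to the other side of either population under any of the 4 settings, and 193 of the 194 higher genes kept their sign against both. Of the 28 colon epithelium genes, none met the rule as deposited and 7 were higher under median-ratio scaling.

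Alarmins of the S100 family gave the largest levels of the library. S100a9, the partner of S100a8 in calprotectin, was at 54906 FPKM in the Gr-1+ CD11b+ library, 521 in DC and 1298 in macrophages. S100a8 and S100a9 were thus 45.8 and 42.3 times the macrophage value and 119 and 105 times the DC value. S100a11 was the third S100 gene above both, at 7209.9 FPKM in the Gr-1+ CD11b+ library, 1002 in DC and 1617 in macrophages. Of 12 S100 genes compared, 1 was lower than in both others, S100a4, at 34.6 FPKM in the Gr-1+ CD11b+ library, 158 in DC and 205 in macrophages; under median-ratio scaling and equal 75th percentiles it was not called, and S100a6 was then called higher as well. S100a6 itself was at 1307, 254 and 485 FPKM in Gr-1+ CD11b+, DC and macrophage libraries. S100a8 and S100a9 lie close together on chromosome 3 of GRCm38 (90668978 to 90670035 on the plus strand and 90692632 to 90695721 on the minus strand).

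Of the specific granule list, 12 of the 16 genes compared were higher, with medians of 4.51 from DC and 3.57 from macrophages. The 12 include Stfa1, Stfa2, Stfa2l1 and BC100530 of the Stfa cluster described below. Those are close copies of each other whose single values are uncertain, so the count and medians rest in part on them. Ngp, neutrophilic granule protein, was at 413 FPKM in the Gr-1+ CD11b+ library, 3.84 in DC and 7.23 in macrophages. Lcn2 above belongs to this list too. Pglyrp1, which binds bacterial peptidoglycan, was at 1197 FPKM in the Gr-1+ CD11b+ library, 55.9 in DC and 52.4 in macrophages. Hp, haptoglobin, was at 3029 FPKM in the Gr-1+ CD11b+ library, 39.9 in DC and 409 in macrophages, and its macrophage value was the highest among the list's members outside the Gr-1+ CD11b+ library. Cd177, a surface protein of neutrophils anchored by lipid, was at 263 FPKM in the Gr-1+ CD11b+ library, 4.36 in DC and 21.8 in macrophages. For Ngp, Lcn2, Pglyrp1, Hp and Cd177 the FPKM ratio to DC lay between 21.4 for Pglyrp1 and 108 for Ngp.

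Some classical specific granule genes sat near the background. Ltf, lactoferrin, was at 15.9 FPKM in the Gr-1+ CD11b+ library, 2.44 in DC and 0.806 in macrophages, Camp, the precursor of the antimicrobial peptide CRAMP, was at 11.3 FPKM and listed at 0 in both others, and Olfm4 was at 19.3 FPKM in the Gr-1+ CD11b+ library, 0.386 in DC and 2.14 in macrophages. These levels lie between the silent level of 9.69 FPKM and 23.2, the highest value of an olfactory or vomeronasal receptor that met the rule. With the silent level subtracted 9 of the 16 specific granule genes were called, without Ltf, Camp and Olfm4. Chil3, the chitinase-like protein Ym1, was not a member because macrophages had more of it, with 198 FPKM in the Gr-1+ CD11b+ library, 28.8 in DC and 566 in macrophages. Cybb, the membrane subunit of the oxidase, stood at 37.4, 119 and 313 FPKM in that order.

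Azurophil granule genes, the earliest set to be made, were not among the members. Of 10 genes listed, 6 reached 1 FPKM in any library and none met the rule in either direction. Mpo, myeloperoxidase, was at 0.169 FPKM in the Gr-1+ CD11b+ library, Elane, neutrophil elastase, was listed at 0 in all 3 libraries, and Ctsg, cathepsin G, was at 0.5 FPKM. The value of 3 fragments on a 1 kb transcript was 1.18 FPKM in that library, so lower levels of these genes could not be told from 0. Prtn3, proteinase 3, was highest in macrophages, at 4.69, 0.146 and 37.4 FPKM in Gr-1+ CD11b+, DC and macrophage libraries. Mpo, Elane, Ctsg and Prtn3 all lay below the silent level of the Gr-1+ CD11b+ library. Lyz2, lysozyme, and Srgn, the granule proteoglycan serglycin, were abundant but not members, at 5059.8, 2579.8 and 29604 FPKM and 6747, 1513 and 2666 FPKM.

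Gelatinase granules and secretory vesicles gave 5 higher genes of 12. Mmp9, gelatinase B, was at 865 FPKM in the Gr-1+ CD11b+ library, 12.5 in DC and 43.6 in macrophages. Mmp8, neutrophil collagenase, was at 526 FPKM in the Gr-1+ CD11b+ library, 6.69 in DC and 31.5 in macrophages. Slpi, an inhibitor of leukocyte proteases, was at 4823 FPKM in the Gr-1+ CD11b+ library, 612 in DC and 665 in macrophages, and Adam8, a membrane protease, was at 811 FPKM in the Gr-1+ CD11b+ library, 53.8 in DC and 131 in macrophages. The fifth was Vnn3, a pantetheinase-family gene, at 43.7, 0.483 and 4.92 FPKM. Other genes of the list showed no such difference: Mmp25 was at 16.2, 4.11 and 6.27 FPKM and Arg1 at 3.43, 8.11 and 21.6 FPKM, in that order.

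Cystatin A-like genes of the Stfa cluster were raised side by side on chromosome 16. The 6 members between 36156811 and 36408457 were Stfa2l1, Gm5483, Gm5416, Stfa1, BC100530 and Stfa2. Stfa2l1 was at 583 FPKM in the Gr-1+ CD11b+ library, 4.97 in DC and 16.1 in macrophages, Gm5483 at 687, 7.21 and 14.7 FPKM in that order, and Stfa1 at 83.3, 1.08 and 2.15 FPKM. Stfa3, the next gene, was at 9.97, 2.23 and 0 FPKM, just short of the limit from DC and of the floor. These genes are close copies of each other, so the authors' counting could have moved fragments between them and the single values are uncertain. Across the genome, 52 of the higher members lay within 250 kb of another in 21 clusters. They included Rufy4, Cxcr2 and Cxcr1 on chromosome 1, Trem1 and Trem3 on chromosome 17, Mrgpra2a and Mrgpra2b on chromosome 7 and Ifitm5, Ifitm1 and Ifitm6, also on chromosome 7.

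**Figure D2:**
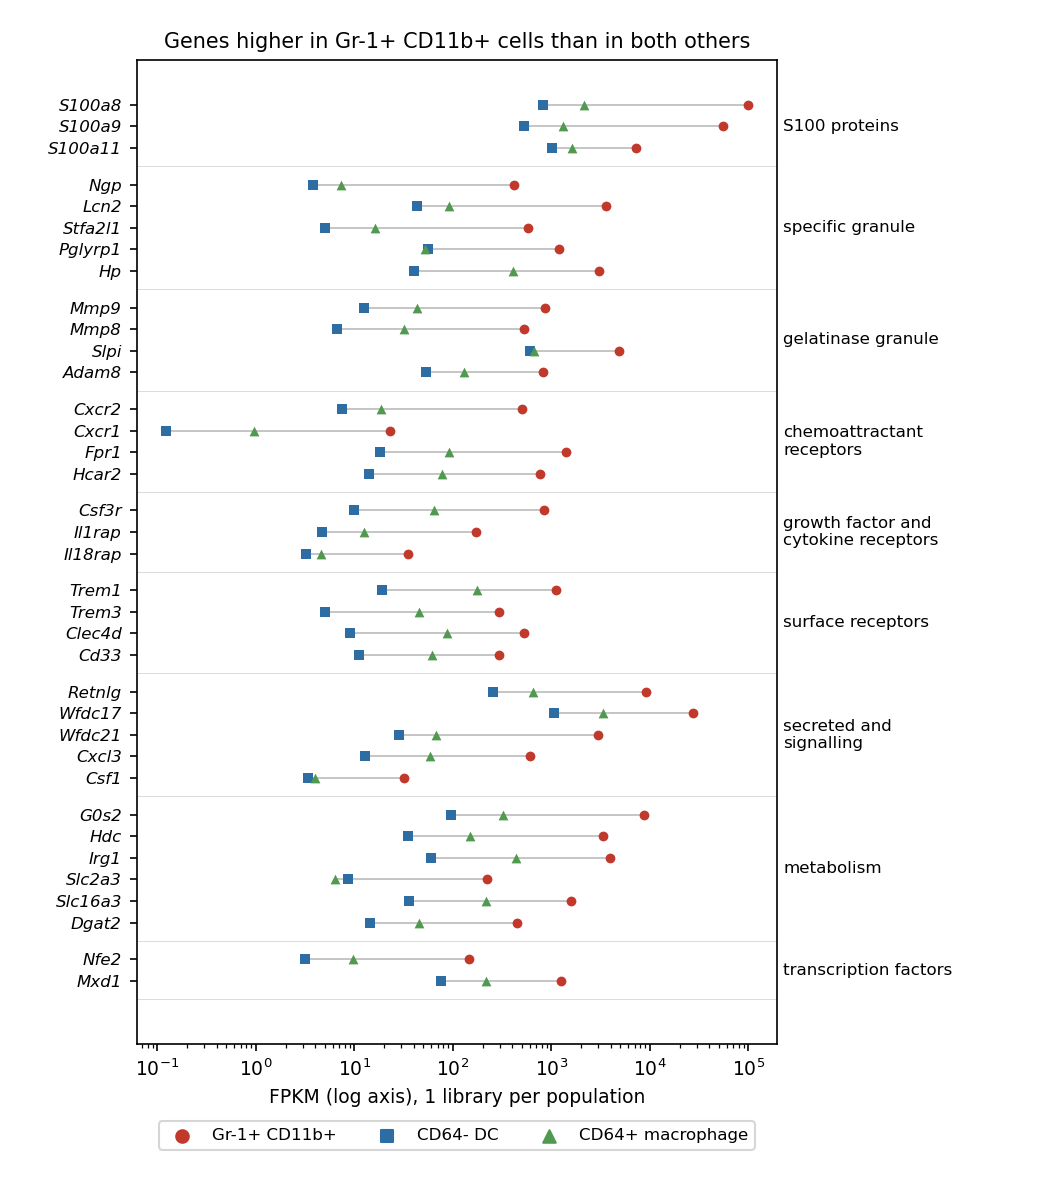
FPKM on a log axis in the Gr-1+ CD11b+ (red circles), DC (blue squares) and macrophage (green triangles) libraries for higher members, grouped by role, with 1 library per population. Every red circle lies to the right of both others, from 23 FPKM for Cxcr1 to 98579.9 for S100a8, and the macrophage value lies above the DC value in most rows.

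Promoters of a few members show sequence letters that the rule did not use. Lcn2, Ngp and S100a9 are printed because each holds the letters TTGCNNAA, a core of the motif bound by C/EBP factors, which are known to drive granule genes. The 250 bases before the RefSeq start (GRCm38.p6) are given 5′ to 3′ on the gene's strand, with the motif, read on either strand, in capitals.
Lcn2 (chr2:32387740-32387989, minus strand): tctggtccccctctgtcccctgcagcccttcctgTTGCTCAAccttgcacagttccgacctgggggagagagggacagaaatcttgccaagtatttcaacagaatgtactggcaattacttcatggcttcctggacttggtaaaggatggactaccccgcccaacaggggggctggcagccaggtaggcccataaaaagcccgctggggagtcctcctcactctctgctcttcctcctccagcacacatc
Ngp (chr9:110419558-110419807, plus strand): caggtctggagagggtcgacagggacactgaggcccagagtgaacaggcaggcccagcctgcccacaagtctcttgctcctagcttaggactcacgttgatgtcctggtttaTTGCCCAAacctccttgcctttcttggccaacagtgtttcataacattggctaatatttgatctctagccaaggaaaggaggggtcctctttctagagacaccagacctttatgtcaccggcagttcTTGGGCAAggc
S100a9 (chr3:90695722-90695971, minus strand): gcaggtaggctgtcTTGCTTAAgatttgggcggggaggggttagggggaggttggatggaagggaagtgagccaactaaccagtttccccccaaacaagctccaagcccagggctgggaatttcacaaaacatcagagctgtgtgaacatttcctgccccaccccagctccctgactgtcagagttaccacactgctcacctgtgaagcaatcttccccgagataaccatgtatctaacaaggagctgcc
The match lies 209 bases before the start in Lcn2, 229 in S100a9, and 131 and 4 in Ngp, counted from the motif base nearest the start. RefSeq promoters of 250 bases before to 50 after the start matched 17191 of the 24346 symbols, 142 of the 194 higher genes and 178 of the 238 lower genes. The letters were in 31 of those 142 (21.8%), in 17 of the 178 lower genes (9.55%), in 11.5% of all promoters and in 11.3% of the promoters of symbols at 10 FPKM or more in any library. Among the specific granule members 4 of 10 held them, Ltf, Lcn2, Ngp and Stfa1, and among the 18 neutrophil identity members with a promoter only Retnlg did. A second set of letters, GAGGAAGT on either strand, a core of the motif of PU.1, was in 10 of the 142 higher promoters (7.04%), S100a8 and Mmp8 included. It was in 10.1% of the lower ones, in 4.81% of those of symbols at 10 FPKM or more in any library and in 3.58% of all. A match describes the letters in this window and does not show binding.

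Receptors for chemoattractants gave 4 higher genes of 21, and all 4 kept their place when the libraries were rescaled. Cxcr2, the receptor for the neutrophil chemokines of the CXCL1 to CXCL5 kind, was at 497 FPKM in the Gr-1+ CD11b+ library, 7.47 in DC and 18.4 in macrophages. Its neighbour Cxcr1 was at 23 FPKM in the Gr-1+ CD11b+ library, 0.121 in DC and 0.961 in macrophages. That level lay just below 23.2 FPKM, the highest value of an olfactory or vomeronasal receptor that met the rule. Cxcr1 was not called with a pseudocount of 10 or a floor of 30 FPKM. Fpr1, the receptor of formylated bacterial peptides, was at 1407 FPKM in the Gr-1+ CD11b+ library, 18 in DC and 92.1 in macrophages. Hcar2, the receptor of niacin and hydroxybutyrate, was at 769 FPKM in the Gr-1+ CD11b+ library, 14 in DC and 77.4 in macrophages. Further receptors of this list exceeded DC but not macrophages by the limit, among them C5ar1 at 1212, 35.1 and 462 FPKM, Ccrl2 at 1930.1, 148 and 1380.0 FPKM and Fpr2 at 226, 6.11 and 61.3 FPKM. In all, 12 of the 21 were higher than in DC (633 genes in that comparison, 3.65%). Cxcr4, the receptor that holds neutrophils in the marrow, was at 19.95, 26.4 and 25.2 FPKM in Gr-1+ CD11b+, DC and macrophage libraries.

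Cytokine and growth factor receptors gave 3 higher genes of 25. Besides Csf3r these were Il1rap, the accessory chain of the interleukin-1 receptor, at 173 FPKM in the Gr-1+ CD11b+ library, 4.65 in DC and 12.4 in macrophages, and Il18rap, that of the interleukin-18 receptor, at 34.6 FPKM in the Gr-1+ CD11b+ library, 3.25 in DC and 4.61 in macrophages. Il1r2, the decoy receptor of interleukin-1, was among the 20 most abundant genes of the library and fell short only against macrophages, with 5731 FPKM in the Gr-1+ CD11b+ library, 699 in DC and 1532 in macrophages and a log2 difference of 1.90. Il1f9, encoding interleukin-36 gamma, belonged to no list and was picked out after its values were seen; it was at 581 FPKM in the Gr-1+ CD11b+ library, 8.53 in DC and 37.3 in macrophages. The interleukin-1 transcripts were shared with macrophages: Il1b was at 13362, 1894 and 11637 FPKM and Il1rn, the receptor antagonist, at 935, 126 and 1475 FPKM in Gr-1+ CD11b+, DC and macrophage libraries. Of 19 interleukin-1 and inflammasome genes the 1 member was Nlrp12, a NOD-like receptor, at 32.6, 0.482 and 1.31 FPKM.

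Innate receptors of the TREM and lectin families separated related genes. Trem1, which amplifies responses of neutrophils and monocytes, was at 1119.8 FPKM in the Gr-1+ CD11b+ library, 19.1 in DC and 175 in macrophages, and Trem3 beside it at 292, 5.02 and 45.1 FPKM in that order. Trem2, the macrophage member of the family, was at 5.92, 7.54 and 86.3 FPKM. Clec4d, a receptor of mycobacterial glycolipid, was at 521 FPKM in the Gr-1+ CD11b+ library, 8.93 in DC and 87.8 in macrophages. Its partner Clec4e, Mincle, was not a member, since macrophages held 851 FPKM against 1523 in Gr-1+ CD11b+ cells. Cd33 and Sirpb1b completed the 4 higher genes among 35 Fc and paired receptors, at 292, 11.1 and 61.8 FPKM and 148, 4.98 and 34.9 FPKM; under median-ratio scaling and equal 75th percentiles there were 8. In this list 23 of the 35 were higher than in DC, with a median of 2.77, while the median from macrophages was 0.52. Fcgr3 and Fcgr4, low- and intermediate-affinity IgG receptors, were at 818, 87.6 and 1005 FPKM and 302, 24.1 and 347 FPKM in Gr-1+ CD11b+, DC and macrophage libraries.

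Pattern receptors, adhesion molecules and the oxidase gave few or no members. None of 25 toll-like receptor genes and partners met the rule. Tlr4 was at 27.7, 2.03 and 10.9 FPKM and Tlr2 at 297, 30.3 and 332 FPKM in the order given. Of 25 adhesion genes only Itgb2l, an integrin beta chain, did, at 20.3, 0.55 and 0.848 FPKM. Selplg, which encodes the adhesion protein PSGL-1, fell just short, at 1.94 from DC and 2.25 from macrophages on the log2 scale, and was called under median-ratio scaling and equal 75th percentiles. Of 8 NADPH oxidase genes none was higher. Hvcn1, the proton channel that balances the oxidase's charge, was lower, at 4.2, 138 and 22 FPKM, but not under median-ratio scaling or equal 75th percentiles.

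Secreted factors of the members included the WAP-domain proteins Wfdc17 and Wfdc21 on chromosome 11. Wfdc17 was at 27626 FPKM in the Gr-1+ CD11b+ library, 1068 in DC and 3351 in macrophages, and Wfdc21 at 2999, 28.6 and 67.1 FPKM in that order. Cxcl3, a ligand of Cxcr2, was the higher gene among 27 chemokines, at 605 FPKM in the Gr-1+ CD11b+ library, 12.7 in DC and 58.7 in macrophages, and Csf1, the macrophage growth factor, that among 26 cytokines, at 31.7 FPKM in the Gr-1+ CD11b+ library, 3.37 in DC and 3.98 in macrophages. Ccl17, which attracts T cells, was the lower chemokine, at 7.89, 79.8 and 49.6 FPKM. Cxcl2, Tnf and Osm were not members: Cxcl2 was at 2110.1, 107 and 975 FPKM, Tnf at 105, 20.4 and 218 FPKM and Osm at 516, 34.5 and 346 FPKM. Prok2, the chemokine-like peptide prokineticin 2, was at 86.7, 2.14 and 1.68 FPKM, low but still well above the silent level.

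Lrg1, Padi4, Anxa1 and Retn belonged to no list and were picked out after their values were seen. Lrg1, a leucine-rich glycoprotein of granules, was at 3836 FPKM in the Gr-1+ CD11b+ library, 45.3 in DC and 169.6 in macrophages. Padi4, the arginine deiminase that acts on histones, was at 80.7, 2.27 and 7.44 FPKM in that order. Anxa1, annexin A1, was at 1382, 137 and 237 FPKM. Retn, resistin, was at 28.9 FPKM, listed at 0 in DC and at 1.58 in macrophages, whereas Retnla, of the same family, was lower than in both, at 53.4, 606 and 1899 FPKM. Chil1, a chitinase-like protein, was at 549, 5.53 and 13.6 FPKM and Asprv1, an aspartic protease, at 355, 3.68 and 6.08 FPKM; both were among the 15 largest higher differences, and Asprv1 is on the neutrophil identity list.

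Of 22 genes of lipid droplets and lipid metabolism 3 were higher than in both others, while the medians of the list were -0.08 from DC and -0.48 from macrophages and 3 genes were lower than in macrophages. G0s2, an inhibitor of the triglyceride lipase encoded by Pnpla2, was at 8790.2 FPKM in the Gr-1+ CD11b+ library, 95.7 in DC and 324 in macrophages. The others were both enzymes that make triglyceride from diacylglycerol: Dgat2 was at 451 FPKM in the Gr-1+ CD11b+ library, 14.3 in DC and 45 in macrophages and Dgat1 at 666 FPKM in the Gr-1+ CD11b+ library, 139 in DC and 113 in macrophages; Dgat1 was not called with equal FPKM sums. Pnpla2 itself was at 57.8, 41.5 and 46.1 FPKM, and Plin2, the main droplet coat protein, at 326, 64.2 and 464 FPKM. For glycogen, Ppp1r3b and Ppp1r3d, which target a phosphatase to glycogen, were at 88.7, 3.3 and 6.33 FPKM and 26.3, 0.832 and 1.24 FPKM, and Pygl, glycogen phosphorylase, at 296, 12.4 and 40.1 FPKM; these and Upp1, uridine phosphorylase, at 664, 20.3 and 60.4 FPKM, were picked out after their values were seen. Of 37 hypoxia and glycolysis genes 2 were higher, both transporters: Slc2a3, a glucose carrier, at 222 FPKM in the Gr-1+ CD11b+ library, 8.67 in DC and 6.3 in macrophages, and Slc16a3, a lactate exporter, at 1572 FPKM in the Gr-1+ CD11b+ library, 35.8 in DC and 218 in macrophages. The enzymes between them differed less, with Gapdh at 1522, 807 and 1269 FPKM, Pkm at 1469.6, 363 and 835 FPKM and Ldha at 866, 715 and 869.9 FPKM. Under median-ratio scaling 5 of the 37 were called.

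Single enzymes of small signalling molecules met the rule. Hdc, histidine decarboxylase, which makes histamine, was at 3309.6 FPKM in the Gr-1+ CD11b+ library, 35.2 in DC and 148 in macrophages; none of the other 12 mast cell and basophil genes compared was a member, and Cpa3 and Mcpt4, mast cell proteases, were at 1.59 and 4.06 FPKM. Irg1, which makes itaconate, was at 3952 FPKM in the Gr-1+ CD11b+ library, 59.4 in DC and 439 in macrophages. Alox5, the 5-lipoxygenase of leukotriene synthesis, was at 108 FPKM in the Gr-1+ CD11b+ library, 7.67 in DC and 19.8 in macrophages, and its activating protein Alox5ap at 1387, 138 and 523 FPKM, short of the limit against macrophages. Alox5 was the 1 member among 18 eicosanoid genes, whose medians were 0.43 from DC and -0.90 from macrophages, with 5 of them lower than in macrophages.

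Few regulators met the rule. Of 45 transcription factors of myeloid cells, Nfe2 and Mxd1 were higher and Irf8 and Batf3 lower. Nfe2, a factor best known in megakaryocytes and red cell precursors, was at 145 FPKM in the Gr-1+ CD11b+ library, 3.16 in DC and 9.66 in macrophages. Mxd1, an antagonist of Myc, was at 1257 FPKM in the Gr-1+ CD11b+ library, 76.1 in DC and 217 in macrophages. It lies beside Asprv1 on chromosome 6. Cebpe and Gfi1, factors of granulocyte precursors, were at 1.15 and 0.324 FPKM in the Gr-1+ CD11b+ library, below the silent level. Cebpb, a factor of emergency granulopoiesis and of macrophages, was at 3912, 247 and 1719 FPKM in Gr-1+ CD11b+, DC and macrophage libraries. Bcl2l1, encoding the survival protein Bcl-xL, was the member among 29 survival and death genes, at 111 FPKM in the Gr-1+ CD11b+ library, 10.5 in DC and 14 in macrophages; Mcl1 was at 521, 181 and 431 FPKM. None of 30 cell cycle genes met the rule in either direction, and Mki67 was at 3.32, 4.1 and 5.7 FPKM.

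Interferon-response genes contributed 3 of 39. Ifitm1 and Ifitm6, membrane proteins that restrict viral entry, were at 7096 FPKM in the Gr-1+ CD11b+ library, 872 in DC and 924 in macrophages and at 826, 116 and 194 FPKM in that order, and Oas3 at 45.2, 3.01 and 9.02 FPKM. The rest of the list had medians of 1.11 from DC and -0.05 from macrophages together with these. Isg15 was at 337, 65.5 and 366 FPKM and Ifit1 at 29.8, 9.36 and 27 FPKM. The members here are thus mostly Ifitm genes. By symbol, 3 of 7 compared genes of that family were higher. The last, Ifitm5, is outside the interferon list. It was at 21.5 FPKM, below 23.2, the highest value of an olfactory or vomeronasal receptor that met the rule.

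**Figure D3:**
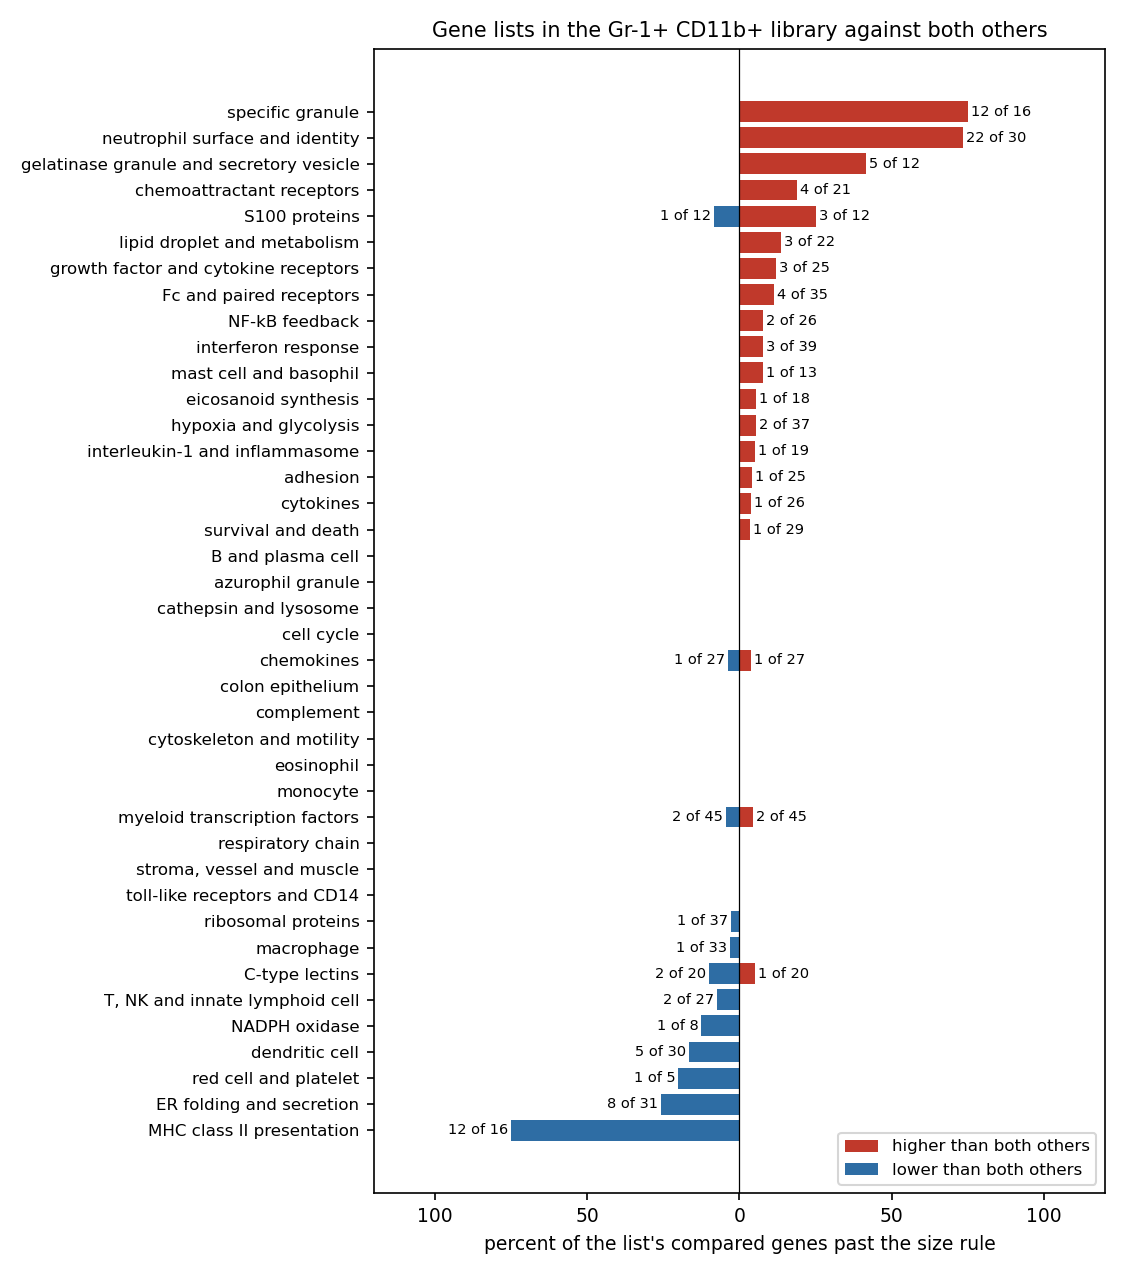
Percent of the compared genes of each list that were higher (red, to the right) or lower (blue, to the left) than in both other libraries, with the counts beside the bars. Specific granule and neutrophil identity reach 12 of 16 and 22 of 30, MHC class II presentation 12 of 16 in the other direction, and most lists have few members or none; 1.12% and 1.37% of all genes compared met the rule.

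Low members need caution. Among the 194 higher genes, 65 lay between 10 and 30 FPKM, and 12 of those were olfactory or vomeronasal receptors. These 12 were 0.826% of the 1452 such genes, which were counted whether or not they reached 1 FPKM. On that base the 194 are out of all 24346 symbols, whereas the 1.12% above is of the 17329 compared. These percentages therefore do not show that receptors were called more rarely than other genes. No receptor of this kind met the rule at 30 FPKM or more, where 129 higher genes remained, 107 of them with a name rather than a code and not small RNA. Of all 194, 26 reached 1000 FPKM. Among the symbols 8 were small RNAs, such as Mir6389, at 30938 FPKM and listed at 0 in both others; transcripts that short are poorly measured by FPKM. Defb5, a defensin, and Ifna7, an interferon, at 21.9 and 10.9 FPKM, belong to the same low range as the receptors. For the 39 higher members with a single annotated transcript the median was 353 fragments and the lowest 9.63. At the edge of the rule, Tirap was just inside at 24, 5.18 and 4.51 FPKM in the order used above, and Ampd3 just outside at 22.2, 4.04 and 4.84 FPKM.

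**Figure D4:**
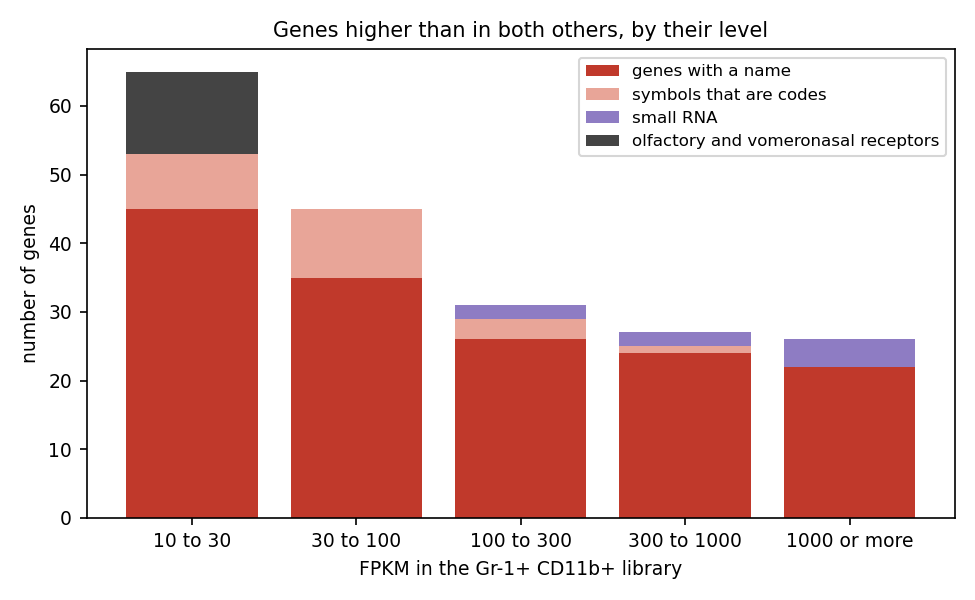
Number of genes higher than in both others by their FPKM in the Gr-1+ CD11b+ library, split into named genes, codes, small RNAs and olfactory or vomeronasal receptors. The 12 receptors all lie in the lowest class, from 10 to 30 FPKM, which holds 65 genes.

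Transcripts of the neutrophil identity members were also found in the other populations, in unequal amounts. Across these 22 members the macrophage value was a median of 6.80% of the Gr-1+ CD11b+ value (1.71% to 23.4%), and the DC value 1.61% (0.527% to 14.1%). The rule admits a gene only at about 4-fold or more above both others, so it caps these percentages. List genes with larger shares elsewhere were left out by it. The percentages therefore do not measure how much neutrophil RNA the other sorts held. Macrophages stood above DC in all 22, and in 149 of all 194 higher members against 34 with DC above and 11 equal. S100a8 at 2154 FPKM in macrophages is therefore not a low value in itself. Which cells in that sort held it was not tested.

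MHC class II presentation was the clearest group in the lower direction, with 12 of 16 genes below both others and medians of -2.72 from DC and -3.32 from macrophages. Cd74, the invariant chain, was at 3009 FPKM in the Gr-1+ CD11b+ library, 21523 in DC and 30833 in macrophages. H2-Ab1 and H2-Aa, the chains of the classical I-A molecule, were at 2574, 16331 and 29149 FPKM and 1183, 8296 and 14819 FPKM in that order, and H2-Eb1 of I-E at 494, 3241 and 5962 FPKM. These genes were thus still among the more abundant of the Gr-1+ CD11b+ library, 0.14 times the DC level for Cd74 and 0.158 times for H2-Ab1. Of the loading chaperones, H2-DMa was at 77.8, 521 and 915 FPKM, H2-DMb1 at 129, 585 and 1557 FPKM and H2-DMb2 at 19.3, 889.7 and 139 FPKM. H2-Oa and H2-Ob, which restrain loading, were at 8.5, 271 and 41.7 FPKM and 3.37, 227 and 17.7 FPKM, with DC the highest. Ciita, the transactivator of the class II genes, was at 3.87, 66.4 and 28.8 FPKM, and its first value, that of the Gr-1+ CD11b+ library, lay below the silent level.

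Costimulatory genes of the same list were split. Cd83, which stabilises class II at the surface, was at 155 FPKM in the Gr-1+ CD11b+ library, 1173 in DC and 1684 in macrophages, and Cd86 at 22.2, 110.0 and 242 FPKM in that order, both lower. Cd40, at 23.5, 78.4 and 238 FPKM, passed the limit only against macrophages, and Cd80, at 47.7, 20.2 and 52.6 FPKM, against neither. Median-ratio scaling and equal 75th percentiles each left 5 of the 12 genes called; under the first these were Cd74, H2-Aa, H2-DMb2, Cd83 and Ciita, while the direction of all 12 held. B cells also express class II, and the B and plasma cell list was lower than in DC in 19 of 20 genes (1088 genes in that comparison, 6.28%) and lower than in macrophages in none. Cd79a, a chain of the B cell receptor, was at 35.8, 1489 and 59.3 FPKM. The part of those cells in the difference from DC was not tested; the difference of Cd74 from macrophages, -3.36, was larger than that from DC, -2.84.

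The class II genes lie together in the genome, and some of their promoters share letters. From H2-Oa to H2-Eb1, 8 of the lower members lie in 1 stretch of chromosome 17 (34092340 to 34316674, GRCm38). The letters CTGATTGG, read on either strand, are the core of the Y box of class II promoters, which NF-Y binds. They are shown in capitals for H2-Aa and H2-Eb1, in the 250 bases before the RefSeq start, 5′ to 3′ on the gene's strand.
H2-Aa (chr17:34287824-34288073, minus strand): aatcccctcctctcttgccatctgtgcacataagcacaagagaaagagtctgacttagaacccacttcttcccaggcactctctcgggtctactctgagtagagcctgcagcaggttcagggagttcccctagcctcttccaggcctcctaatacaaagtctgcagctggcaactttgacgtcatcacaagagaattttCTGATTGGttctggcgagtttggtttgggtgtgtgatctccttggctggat
H2-Eb1 (chr17:34305617-34305866, plus strand): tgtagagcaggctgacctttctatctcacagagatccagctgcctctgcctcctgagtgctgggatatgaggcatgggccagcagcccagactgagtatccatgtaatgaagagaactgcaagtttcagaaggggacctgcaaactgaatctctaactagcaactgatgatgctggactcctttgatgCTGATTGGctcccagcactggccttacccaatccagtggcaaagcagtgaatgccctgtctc
The letters end 44 bases before the start in H2-Aa and 55 in H2-Eb1. They were also in the promoter of H2-Oa, making 3 of the 7 class II members with a promoter in the table. In windows of 300 bases, 18 of 178 lower genes (10.1%) held them, 4 of 142 higher genes (2.82%), 6.60% of the promoters of symbols at 10 FPKM or more, and 5.45% of all. Hsp90b1, Pdia4, Dnajb11 and Irf8 were among the other lower genes with the letters.

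Dendritic cell and macrophage genes made few members. Of 30 dendritic cell genes 5 were lower than both others, 13 were lower than in DC and 8 lower than in macrophages. Batf3, a factor required for cross-presenting dendritic cells, was at 1.58 FPKM in the Gr-1+ CD11b+ library, 20.6 in DC and 42.1 in macrophages, and Irf8, its partner, at 27.6 FPKM in the Gr-1+ CD11b+ library, 189.6 in DC and 145 in macrophages. Cd209a, a lectin of the DC-SIGN family, was at 12.7, 203 and 105 FPKM in that order, and Il4i1, an amino acid oxidase, at 1.51, 111 and 12.4 FPKM. Flt3, the growth factor receptor of dendritic cells, was at 2.52, 39.9 and 5.42 FPKM, lower than in DC only. Of 33 macrophage genes Cd81, a tetraspanin, was the member, at 49.6, 221 and 328 FPKM, although 24 were lower than in macrophages. C1qa was at 102, 96.3 and 1008 FPKM and Adgre1, which encodes F4/80, at 32.5, 21.4 and 197 FPKM in Gr-1+ CD11b+, DC and macrophage libraries. Among 20 C-type lectins Cd209a and Clec10a were lower, the latter at 9.51, 51.2 and 78 FPKM. Median-ratio scaling left 3 of the 5 dendritic cell genes and did not call Cd81.

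Some surface molecules of lymphocytes and antigen-presenting cells were among the lower members. Cd72, a lectin that restrains B cell signalling, was at 11.8 FPKM in the Gr-1+ CD11b+ library, 311 in DC and 137 in macrophages. Of 9 SLAM family genes 4 were lower, Cd48, Ly9, Slamf7 and Slamf9, and the first 3 lie together on chromosome 1; the family was picked out after its values were seen. Cd48 was at 20.8 FPKM in the Gr-1+ CD11b+ library, 160.4 in DC and 245 in macrophages, Ly9 at 1.01, 22.5 and 18.5 FPKM in that order and Slamf7 at 7.02, 49.2 and 54.5 FPKM; median-ratio scaling kept Cd48 and Ly9. Other genes of the family ran the other way without meeting the rule, Cd244 at 68.3, 8.05 and 28.4 FPKM and Cd84 at 87.9, 22.8 and 59.5 FPKM. Cd4 and Cd2 were the members among 27 T, NK and innate lymphoid genes, at 3.83, 20.3 and 48.9 FPKM and 4.24, 163 and 20.7 FPKM; both lay below the silent level in the Gr-1+ CD11b+ library, and neither was called under median-ratio scaling or equal 75th percentiles. Il2rg, the common cytokine receptor chain, was at 103, 756 and 546 FPKM, and Gpr183, an oxysterol receptor that positions dendritic cells, at 6.65, 95.9 and 55.5 FPKM; of these, Gpr183 was still called under both scalings and Il2rg was not. Tmem176a and Tmem176b, neighbouring membrane protein genes on chromosome 6, were at 119.6, 801 and 604 FPKM and 159, 833 and 1021 FPKM; neither was called under median-ratio scaling. Il2rg, Gpr183 and the Tmem176 pair were picked out after their values were seen.

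Protein folding in the endoplasmic reticulum gave 8 lower genes of 31, with medians of -2.11 from DC and -1.53 from macrophages. Hsp90b1, the chaperone gp96, was at 54 FPKM in the Gr-1+ CD11b+ library, 586 in DC and 269 in macrophages. Pdia4 and Pdia6, disulfide isomerases, were at 29.6, 389 and 129 FPKM and 60.4, 349 and 309 FPKM in that order, and Sdf2l1, a partner of BiP, at 33.1, 297 and 237 FPKM. Creld2, Manf, Dnajb11 and Spcs3 were the others, with Creld2 at 27.4, 390.3 and 121 FPKM. DC held the highest level of all 8, in the library in which plasma cell genes also stood highest: Jchain was at 352, 18847 and 982 FPKM. Hspa5, BiP itself, was at 432, 1067 and 1247 FPKM and was not a member. Only 1 of the 8, Sdf2l1, was called under median-ratio scaling, and 1 under equal 75th percentiles.

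**Figure D5:**
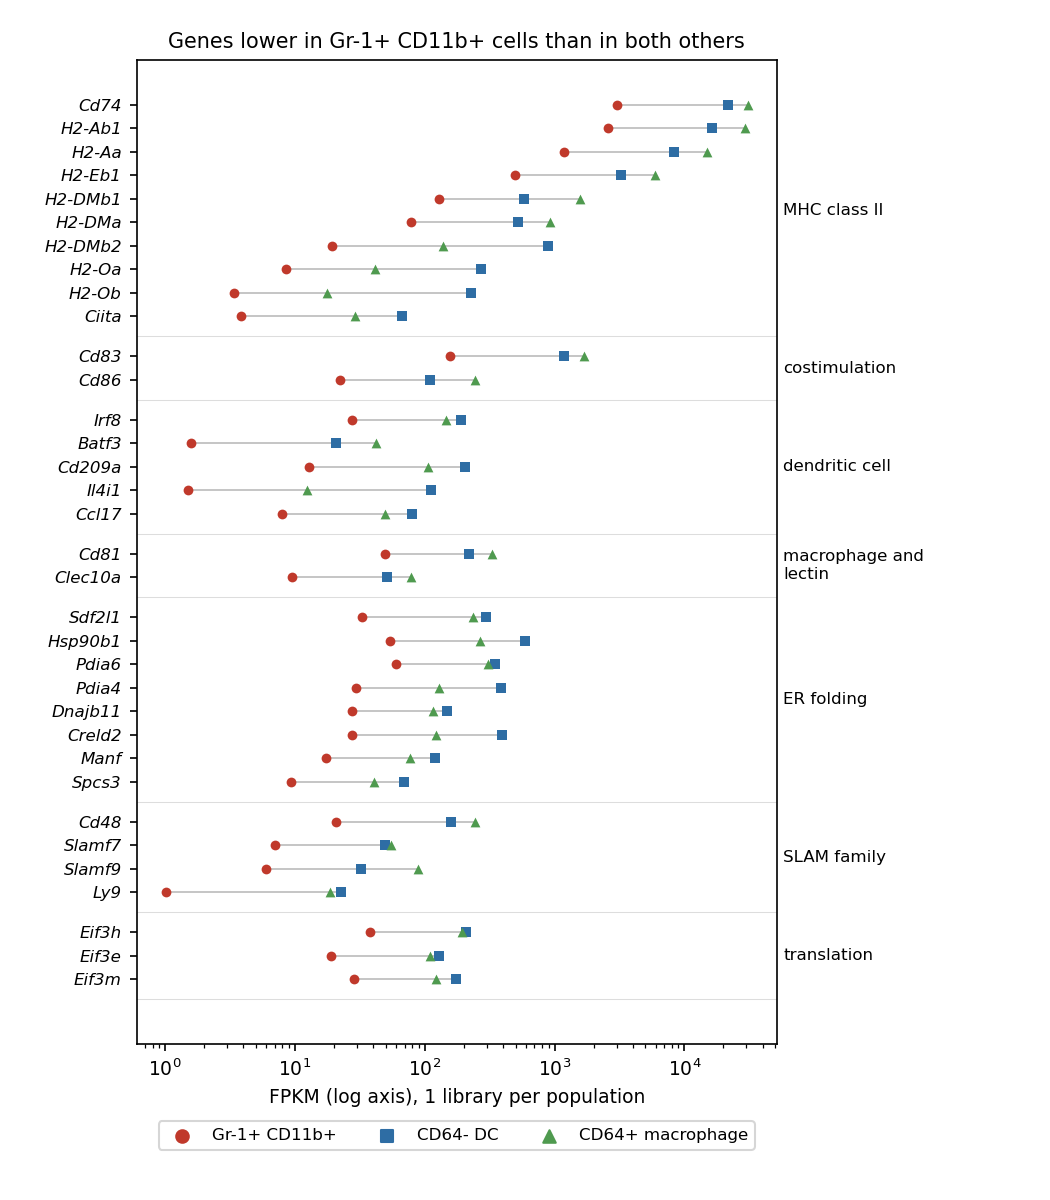
FPKM on a log axis in the Gr-1+ CD11b+ (red circles), DC (blue squares) and macrophage (green triangles) libraries for lower members, grouped by role, with 1 library per population. Each red circle lies to the left of both others; class II genes range from 3.37 FPKM for H2-Ob to 3009 for Cd74, and DC values exceed macrophage values for all 8 endoplasmic reticulum genes.

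Few translation and mitochondrial genes met the rule. Of the 37 ribosomal protein genes listed, Rpl34 did, at 12.3 FPKM in the Gr-1+ CD11b+ library, 176 in DC and 127 in macrophages; 28 of the 37 were lower than in DC and 1 lower than in macrophages, with medians of -2.37 and -1.66. Rps27, a ribosomal protein gene outside that list, was lower at 7.41, 378 and 477 FPKM and kept its call in all 11 settings. Its value in the Gr-1+ CD11b+ library lay below the silent level of 9.69 FPKM, so the size of its difference is uncertain. Rpl26, also outside the list, is given below. Of 12 subunits of the initiation factor eIF3, 3 were lower, Eif3e at 19, 128 and 109 FPKM in that order, Eif3h at 38.1, 207 and 192 FPKM and Eif3m at 28.7, 174 and 121 FPKM; this family was picked out after its values were seen, and none of the 3 was called under median-ratio scaling or equal 75th percentiles. None of 36 respiratory chain genes met the rule, with medians of -1.19 and -1.195, and 15 housekeeping genes had medians of -0.97 and -0.75. Proteasome and mitochondrial ribosome genes gave 3 of 50 and 2 of 77 (1.37% over all genes compared), and none of these was called under either of those scalings. The 10 most abundant genes made up 33.5% of all FPKM of the Gr-1+ CD11b+ library, 14.97% in DC and 22.2% in macrophages; the part of this in the lower values was not tested.

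Several of the largest lower differences concern genes with near-identical copies and are uncertain. Hbb-bs was at 0.0173 FPKM in the Gr-1+ CD11b+ library against 70.1 in DC and 66.5 in macrophages, while Hba-a1, the other globin chain, was at 525, 451 and 249 FPKM. H2-Q8 was at 0.00176, 108 and 84.1 FPKM, Rpl26 at 0.00238, 32.9 and 14.2 FPKM and Ccl21a at 0.0146, 18.1 and 13.4 FPKM. How fragments shared between copies were assigned is not given in the sources used here. The same limit applies to H2-Q10, a secreted class I molecule among the higher members, at 434, 2.8 and 12.7 FPKM, since 3 other class I genes, H2-Q7, H2-Q8 and H2-M3, were lower. The mice were BALB/c and build mm10 is of another strain, C57BL/6J, so values of polymorphic H2 genes, class II included, carry a limit whose size was not tested. At the edge of the lower rule, Ptma was just inside at 134, 695 and 541 FPKM and Calr just outside at 71.8, 289.7 and 298 FPKM.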

How the data were processed

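RNA of 3 sorted populations was extracted with the RNeasy kit, copied to full-length cDNA with SMART-Seq HT and made into Nextera libraries, per the labels' protocols. The authors deposited an FPKM value for each gene symbol and library. Per the submitters' processing notes, which state no roles, Cufflinks 2.2.1, TopHat2 2.0.13, SAMtools 0.1.19 and Bowtie2 2.2.3 were used with build mm10. What annotation or filters were applied is not given in the sources used here.

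Deposited values entered with a pseudocount of 1 before log2, so differences of genes with low values are understated. A gene was compared at 1 FPKM or more in any library and called by the size rule (log2 difference of 2, floor of 10 FPKM). With 1 library per population there is no test. Depth was estimated from steps of FPKM times length in 3550 genes with a single transcript, 225 nt being subtracted from the length; of the low values, 85.7% to 86.2% lay within 0.2 of a whole fragment, against 40% by chance. As amplified fragments carried no molecular identifiers, such depths describe counting error alone. Positions are from GENCODE M21 (GRCm38, the build also called mm10), which held 23310 of the symbols. Promoter sequences are RefSeq's (GRCm38.p6).

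The members and the 42 gene lists (914 genes, 902 in the files) were chosen with earlier results of these data known. Genes were named by a rule: the 4 markers, the sort markers, the 15 largest differences per direction, up to 6 members and the 3 highest genes of each list, and genes at the edge of the size rule. Others are said to be picked out after their values were seen, or are given as related genes of a list. An adhesion gene is not reported here. On simulated fragment counts over 21677 genes, the size rule called 50 of 50 genes raised 8-fold against both others, 50 of 50 lowered 8-fold, 0 of 100 changed 2-fold and 0 of 21477 unchanged. Only counting error was simulated, without background. The changed genes had a mean of 30 FPKM or more, and their changes lay well to either side of the rule's 4-fold limit. The simulation therefore says nothing of changed genes at lower levels or near that limit. Alternatives were 2 pseudocounts, 2 floors, 2 log2 limits, 3 scalings, subtraction of the silent level and leaving out transcripts under 300 nt. Python 3.11.15, NumPy 2.4.6, pandas 2.3.3 and matplotlib 3.10.9 were used.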

Additional observations from a re-analysis of the deposited data

How the results depend on the processing

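Counts are given as higher and lower. Against both other populations the rule called 194 and 238 genes, 633 and 1088 against DC alone, and 244 and 591 against macrophages alone. A pseudocount of 10 gave 93 and 53 against both, 293 and 309 against DC, 110 and 219 against macrophages, and 3 lower endoplasmic reticulum genes. Without a floor beyond 1 FPKM there were 306 higher against both, 1748 against DC and 395 against macrophages. A floor of 30 FPKM gave 129 and 150, 377 and 666 against DC, and 158 higher against macrophages. A log2 limit of 1 gave 649 and 1820, 1045 and 3226, 818 and 2610, and 22 endoplasmic reticulum genes. A limit of 3 gave 84 and 28, 359 and 240, 100 and 124, with 0 class II and 0 endoplasmic reticulum genes. Median-ratio scaling gave 498 and 60, 1125 and 353, 617 and 250, with 5 class II genes and 1 of the endoplasmic reticulum. Equal 75th percentiles gave 508 and 59, 1118 and 364, 631 and 241, and again 5 and 1. With equal FPKM sums 1804 genes were lower than in DC. Subtraction of the silent level gave 1695 lower against both, 405 and 3379 against DC, 2167 lower than in macrophages, and 14 endoplasmic reticulum genes. The remaining counts, among them those of specific granule and neutrophil identity genes, stayed within 1.5 times in these settings, and no named member turned to the other side, although the difference of Mcam fell to 0 with the silent level subtracted. Of the 109 named members, 42 kept their call in all 11 settings. Why the counts moved was not tested.

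The Gr-1+ CD11b+ library limits what can be said of low genes: 3 fragments on a 1 kb transcript correspond to 1.18 FPKM there, against 0.33 in DC and 0.438 in macrophages, and its silent level is nearly the floor of the rule. Variation between mice cannot be judged with 1 library per population. No paired analysis was possible because the labels give no replicate numbers and each population has 1 library.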

Other observations

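Regulators and membrane genes outside the lists also stood out among the higher members, picked out after their values were seen and given as values only. Steap4, a metalloreductase, was at 199 FPKM in the Gr-1+ CD11b+ library, 6.96 in DC and 6.92 in macrophages, and Slc40a1, the iron exporter ferroportin, at 78.4, 3.41 and 18.4 FPKM in that order. Id1, an inhibitor of basic helix-loop-helix factors, was at 171, 17.6 and 13.6 FPKM, Snai1, a zinc finger repressor, at 76.7, 2.57 and 3.82 FPKM, and Fosl1, an AP-1 subunit, at 52.6, 3.77 and 6.15 FPKM. Stx11, a syntaxin of granule release, was at 496, 32.9 and 72 FPKM, Lmnb1, lamin B1, at 228, 20.4 and 43.5 FPKM, and Mcemp1, a mast cell and myeloid membrane protein beside Retn on chromosome 8, at 1134, 54.8 and 254 FPKM. Entpd3, an ectonucleotidase that hydrolyses extracellular ATP, was at 33, 0.374 and 1.48 FPKM, a level just above 30 FPKM. The methionine sulfoxide reductases Msrb1 and Msra were higher, at 133, 7.87 and 30.1 FPKM and 129, 24.6 and 25.4 FPKM.

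In the lower direction, genes of metabolism and of lysosomal processing appeared singly, likewise picked out after their values were seen. None of the 7 named here was called under median-ratio scaling or equal 75th percentiles. Ifi30, the thiol reductase that prepares antigen for class II, was at 65.7 FPKM in the Gr-1+ CD11b+ library, 329 in DC and 585 in macrophages, and Ly86, the partner of the receptor RP105, at 61.9, 298 and 660.4 FPKM in that order. Kmo, an enzyme of tryptophan breakdown, was at 3.62, 48.1 and 19.5 FPKM, below the silent level in the first library, Got1, aspartate transaminase, at 28.2, 127 and 306 FPKM, Idh2, a mitochondrial isocitrate dehydrogenase, at 19.3, 96 and 93.6 FPKM, and Odc1, the first enzyme of polyamine synthesis, at 59, 386 and 296 FPKM. Crip1, a small LIM-domain protein, remained abundant in all 3, at 451, 2313 and 2478 FPKM.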
